A study of Homo sapiens with 9 samples.

Results

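The 8 genes described here encode membrane proteins of the SERINC family (SERINC1, SERINC2, SERINC3 and SERINC5), the paired endoplasmic reticulum (ER) proteins BCAP31 and BCAP29, and BRI3BP with its namesake partner BRI3. They were selected on earlier results of the same ribosome profiling data: some were reported as stalled by a compound, and the others are their paralogs or partners. All 8 had a row in both tables, out of 9221 transcripts listed in either table. Ribosome profiling sequences the mRNA fragments that translating ribosomes shield from nuclease, so that a read marks a ribosome on a coding sequence. Huh-7 cells, an established human hepatocellular carcinoma line, received 1.5 µM PF-06446846 (PF846), 1.5 µM PF-06378503 (PF8503) or 0.5% DMSO as vehicle, each for 1 hr, with 3 libraries per condition and 9 in all. The study's scripts number replicates in another way than the labels, so which of the libraries entered each mean is not certain. The labels give no other agent and no genetic change for any group. The study's methods add that cells of every group were rinsed and lysed with cycloheximide, a general translation inhibitor, after the treatment. Names of the deposited libraries place each condition on sequencing lanes of its own, which means that effects of lane and of condition cannot be told apart.

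The deposited tables compare each compound with the same vehicle libraries. They give, for each transcript, the authors' mean with vehicle and with compound, in read counts scaled by library size factors (normalized counts). Values of single libraries are not analysed here, so every level below is the authors' mean with no replicate error, and no difference was tested against the spread between cultures. The means of the PF8503 table sum to 10521744 normalized counts with vehicle and 10488180 with PF8503 over 9157 transcripts. Those of the PF846 table sum to 9627557 with vehicle and 9622385 with PF846 over 8839 transcripts. Counting noise and replicate spread limit what these ratios show, and a ratio of means carries neither.

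Markers of the cell line were checked first. All 9 hepatocyte-derived genes on a fixed list (ALB, AFP, APOA1, APOB, TTR, SERPINA1, TF, FGB and AHSG) were in both tables and held 5.01% of the summed vehicle mean in each. AFP, the fetal counterpart of albumin, was the most abundant per codon, at 362 normalized counts per codon with vehicle. Of 5 genes that mark leukocytes, endothelium or fibroblasts, PTPRC, COL1A1 and COL1A2 were in neither table, while CD68 and PECAM1 were in both. With vehicle, PECAM1 had 0.237 normalized counts per codon (14.6th percentile of transcripts) and CD68 had 2.66 (76.0th percentile). CD68, listed for other cells, was thus well above the median transcript.

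SERINC proteins cross the membrane many times, are named for incorporating serine into membrane lipids, and act as lipid scramblases. SERINC5 and SERINC3 are known for restricting the infectivity of retroviruses. BCAP31 and its paralog BCAP29 are ER membrane chaperones that escort newly made membrane proteins out of the ER, and BCAP31 is also a caspase substrate in apoptosis signalling between the ER and mitochondria. BRI3BP was found as a binding partner of BRI3 (brain protein I3), a small membrane protein of late endosomes and lysosomes. Synthesis of such proteins at the ER begins when a hydrophobic stretch leaves the ribosome exit tunnel and is bound by the signal recognition particle.

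The starts of the coding sequences carry the first stretch of protein that a translating ribosome makes. The first 30 codons are shown for the 3 members that passed a fold threshold in either comparison (SERINC1, BCAP31 and BRI3BP) and for SERINC3 and BCAP29, the closest paralogs of the first 2. Sequences run 5′ to 3′ from the start codon, in the GRCh38 build and the canonical GENCODE transcripts, and capitals mark codons for Ala, Ile, Leu, Met, Phe, Trp and Val.
SERINC1: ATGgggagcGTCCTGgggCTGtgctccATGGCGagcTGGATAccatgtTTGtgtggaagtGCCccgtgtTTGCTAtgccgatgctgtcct
SERINC3: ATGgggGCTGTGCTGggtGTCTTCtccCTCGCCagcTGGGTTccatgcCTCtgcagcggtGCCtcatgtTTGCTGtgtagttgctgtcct
BCAP31: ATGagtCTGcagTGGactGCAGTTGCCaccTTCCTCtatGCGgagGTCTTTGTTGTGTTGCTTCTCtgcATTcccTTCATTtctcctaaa
BCAP29: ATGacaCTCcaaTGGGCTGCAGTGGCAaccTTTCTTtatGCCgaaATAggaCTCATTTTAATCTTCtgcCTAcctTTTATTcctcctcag
BRI3BP: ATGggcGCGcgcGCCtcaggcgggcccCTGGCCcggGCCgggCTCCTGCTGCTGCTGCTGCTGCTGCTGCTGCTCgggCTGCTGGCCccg

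On the minus strand, these bases of SERINC1 lie in coding exon 1 (chr6:122471699-122471737) and exon 2 (chr6:122458631-122458681). Those of SERINC3 lie likewise in exon 1 (chr20:44521913-44521951) and exon 2 (chr20:44513990-44514040), also on the minus strand. The BCAP31 bases lie wholly in exon 2 on the minus strand (chrX:153723155-153723244), and those of BCAP29 wholly in exon 2 on the plus strand (chr7:107580773-107580862). The BRI3BP bases lie in exon 1 on the plus strand (chr12:124993791-124993880). The SERINC starts shown are rich in cysteine codons, with 7 cysteines in residues 2 to 30 of SERINC1 and 6 in those of SERINC3, and SERINC2 and SERINC5, whose starts are not shown, have 9 and 10. The BCAP starts contain instead a run of 7 hydrophobic codons in BCAP31 and 5 in BCAP29. BRI3BP has an unbroken run of 11 leucine codons, and 12 of its first 30 codons are CTG.

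With PF8503, SERINC1 and BRI3BP were the members whose mean was lower than with vehicle by at least 0.5 on the log2 scale. Across the PF8503 table, 1.08% of transcripts were lower by that much and 0.24% higher. With PF846, BCAP31 and BRI3BP passed the same threshold in the lower direction, where 0.396% of transcripts were lower and 0.0792% higher. No member was higher by 0.5 with either compound. Members had been chosen by these same contrasts, so the counts of 2 of 8 are a description from which nothing is read against those shares. Log2 ratios of the other 5 members lay from -0.07 to 0.12 with PF8503 and from -0.06 to 0.16 with PF846. The median log2 ratio of the 8 members was -0.02 with PF8503 and -0.02 with PF846, beside table medians of 0.01 and 0.00.

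**Figure D1:**
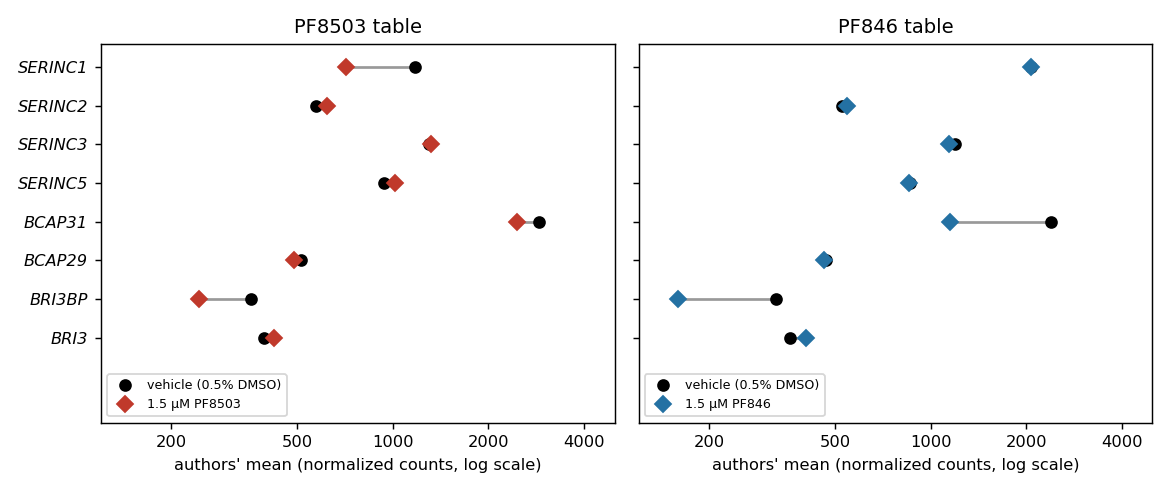
Authors' mean over libraries for each member (normalized counts, log scale) with vehicle (black circles) and with 1.5 µM compound (diamonds), joined by a line (PF8503 on the left, PF846 on the right). No error bars are drawn, because only means over libraries were used. The long lines are those of SERINC1 and BRI3BP with PF8503, and of BCAP31 and BRI3BP with PF846.

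Among the SERINC proteins, SERINC1 had a mean of 1178 normalized counts with vehicle and 714 with PF8503, a log2 ratio of -0.72. It stood 46th from the lowest of 9157 transcripts in that table. In the decile of the table with like means (915 transcripts), the central 95% of log2 ratios ran from -0.30 to 0.21. With PF846, SERINC1 had 2070 normalized counts with vehicle and 2065 with compound, a log2 ratio of 0.00. Its ratio with PF846 thus sat at the centre of its table while that with PF8503 lay far below.

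The closest paralog of SERINC1 is SERINC3, which has 61.9% identical residues over 452 aligned positions. SERINC3 had 1301 normalized counts with vehicle and 1318 with PF8503, a log2 ratio of 0.02. In the PF846 table it had 1191 with vehicle and 1143 with compound, a log2 ratio of -0.06. Both values fell inside the central 95% of transcripts with like means. SERINC5, the family member known best as an antiretroviral factor, had 940 normalized counts with vehicle and 1018 with PF8503 (log2 ratio 0.12). Its means in the PF846 table were 860 with vehicle and 857 with compound (log2 ratio -0.01). SERINC2 had 573 with vehicle and 620 with PF8503 (log2 ratio 0.11), and 525 with vehicle and 543 with PF846 (log2 ratio 0.05). The 3 paralogs of SERINC1 therefore had log2 ratios within 0.12 of zero with either compound.

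The first 30 residues of SERINC1 and SERINC3 match at 21 of 30 aligned positions, close to the 20 of 30 shared by SERINC1 and SERINC2. SERINC5 is the more distant, with 41.3% identity to SERINC1 over the whole protein. The mean Kyte-Doolittle hydropathy of residues 2 to 30, where higher values are more hydrophobic, was 1.24 in SERINC1, 1.54 in SERINC2, 1.57 in SERINC3 and 0.68 in SERINC5. These values stand at the 97.4th, 99.0th, 99.1th and 89.4th percentiles of 8694 genes with a coding sequence. SERINC1 was thus neither the most nor the least hydrophobic at its start among the family. Positions where reads with compound and vehicle diverge were not used, so the start need not be where those of SERINC1 diverge. A link between hydropathy and the ratios was not tested.

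Of the BCAP pair, BCAP31 had a mean of 2391 normalized counts with vehicle and 1155 with PF846, a log2 ratio of -1.05. This was the 10th lowest of 8839 transcripts, and 2 of the 884 transcripts of like mean, itself included, were as low. The central 95% of that decile ran from -0.13 to 0.14. With PF8503, BCAP31 had 2890 normalized counts with vehicle and 2455 with compound, a log2 ratio of -0.24. That value was short of the threshold and inside the central 95% of its decile (-0.28 to 0.17), although 33 of 916 transcripts there were as low. BCAP31 was thus below vehicle with both compounds, and by more with PF846.

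BCAP29 had 513 normalized counts with vehicle and 489 with PF8503, a log2 ratio of -0.07. With PF846 it had 469 with vehicle and 461 with compound, a log2 ratio of -0.02. The 2 BCAP proteins have 120 identical residues over 240 aligned positions, and 19 of the first 30 match. Hydropathy of residues 2 to 30 was 1.44 in BCAP31 and 1.38 in BCAP29, at the 98.6th and 98.4th percentiles. Their starts were thus alike in hydropathy, which was not tested against the ratios. The deposited means of BCAP29 moved by less than 0.1 on the log2 scale with either compound.

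BRI3BP was the member past the fold with both compounds. Its mean was 357 normalized counts with vehicle and 245 with PF8503, a log2 ratio of -0.54, the 81st lowest in that table. With PF846 it was 326 with vehicle and 160 with compound, a log2 ratio of -1.02, the 11th lowest. Transcripts of like mean had central 95% ranges from -0.29 to 0.24 with PF8503 and from -0.22 to 0.20 with PF846. BRI3BP also had the highest hydropathy at its start among the members, 1.63, at the 99.2th percentile. BRI3 differed in each of these respects, and a link between them was not tested. Its means were 393 normalized counts with vehicle and 422 with PF8503 (log2 ratio 0.10), and 360 with vehicle and 403 with PF846 (log2 ratio 0.16). The value with PF846 was above the central 95% of its decile (-0.18 to 0.15) and was 471st from the highest. Hydropathy of residues 2 to 30 of BRI3 was -1.10, at the 15.4th percentile, and its most hydrophobic window of 19 residues spanned residues 92 to 110. BRI3BP and BRI3 bind each other but are not paralogs. The symbol BRI3 has also been used for ITM2C, a different gene that was not among the members.

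**Figure D2:**
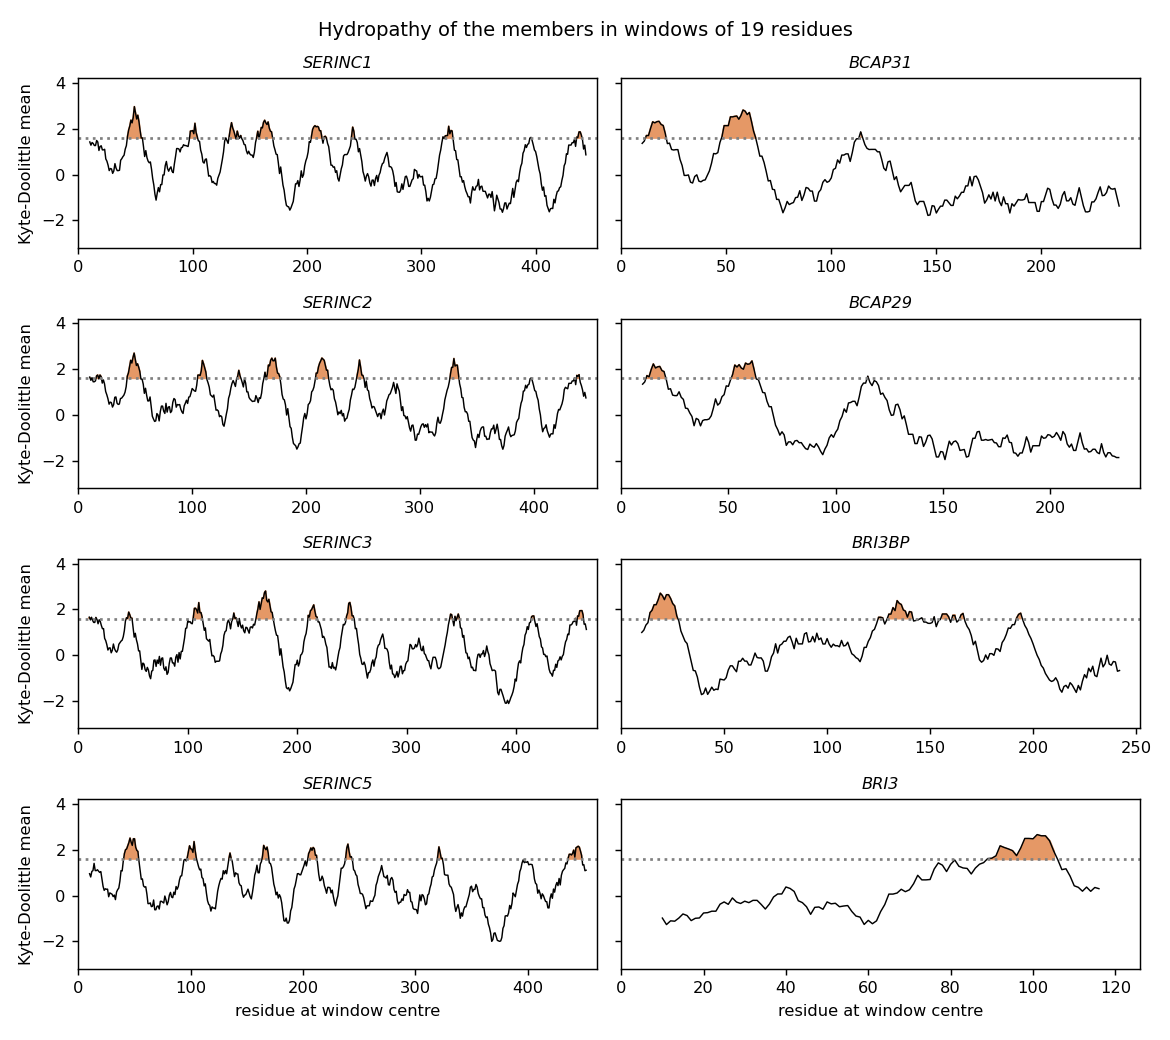
Mean Kyte-Doolittle hydropathy in sliding windows of 19 residues along each member's protein (x axis, residue at the window centre), with windows at or above 1.6 (dotted line) shaded. Counted without overlap, SERINC proteins have 8 to 10 such windows, BCAP31 and BCAP29 have 3 each, BRI3BP has 4 and BRI3 has 1.

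Windows with a mean hydropathy of at least 1.6 were counted from the highest down, leaving out any that overlapped one already counted. They numbered 9 in SERINC1, 10 in SERINC2, 10 in SERINC3 and 8 in SERINC5. They are a description of the sequence and not a count of known membrane spans. The earliest window to reach 1.6 began at residue 3 in BCAP31, 3 in BCAP29 and 5 in BRI3BP. It began at residue 34 in SERINC1, 32 in SERINC5, 80 in BRI3, and 1 in both SERINC2 and SERINC3. Whether the place of the earliest window goes with the ratios was not tested. The members were chosen on these contrasts, and no stall position was used.

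The number of reads depends on which codons were counted. Where cumulative reads with compound and vehicle diverged clearly along a transcript, the study's methods count reads 3′ of the point of largest divergence, and otherwise from 10 codons after the start. Counting 3′ of the point where the profiles diverge most sets the region by the outcome, which favours lower ratios by construction. Because both tables share the vehicle libraries, vehicle means of transcripts counted over the same codons keep a constant ratio between tables, 1.09 for PF8503 over PF846. A departure from it of over 0.002 on the log2 scale marks another region, and 134 of 8775 transcripts in both tables (1.53%) had one. Of the members, SERINC1, BCAP31 and BRI3BP did.

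With PF8503 the counted region of SERINC1 kept 52.1% of the vehicle reads that the PF846 region had, so 47.9% of the reads were left out. For BCAP31 the order was the opposite: with PF846 the counted region kept 90.4% of the vehicle reads found in the PF8503 one. For BRI3BP it kept 99.7% of them. The other 5 members were counted over the same codons in both tables. The shorter region thus went with the larger drop in all 3 members, and its part in the size of the drop was not tested.

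**Figure D3:**
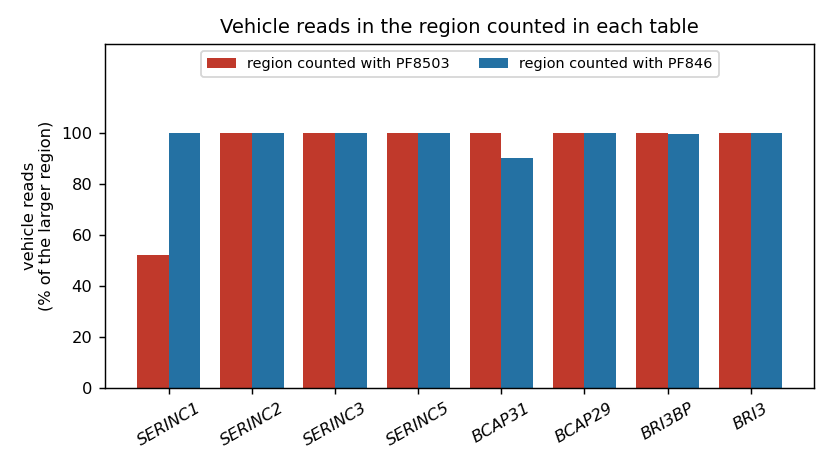
Vehicle reads of each counted region (red bars, PF8503; blue bars, PF846), in percent of the larger region of each member. SERINC1 reaches 52.1% with PF8503 and BCAP31 reaches 90.4% with PF846, while the other bars are at or near 100.

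Dose and time were matched between the compounds, so 8 pairs of ratios were set side by side. SERINC1 was lower with PF8503 by 0.72 on the log2 scale (PF8503 minus PF846, -0.72), the 43rd lowest difference of 8775. BCAP31 was higher with PF8503 than with PF846 by 0.82 on the log2 scale, the 8th highest difference. BRI3BP was higher with PF8503 by 0.48, the 27th highest. For these 3 members the regions differ too, and SERINC1 and BCAP31 were chosen for a response to 1 compound, so the differences are a description. In the 5 members counted over the same codons, the differences ran from -0.06 for BRI3 to 0.12 for SERINC5. The central 95% of transcripts in both tables ran from -0.30 to 0.27. Values of single libraries were not analysed, so no interval was computed for any of these differences. Small differences do not show that the compounds act alike on a member.

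**Figure D4:**
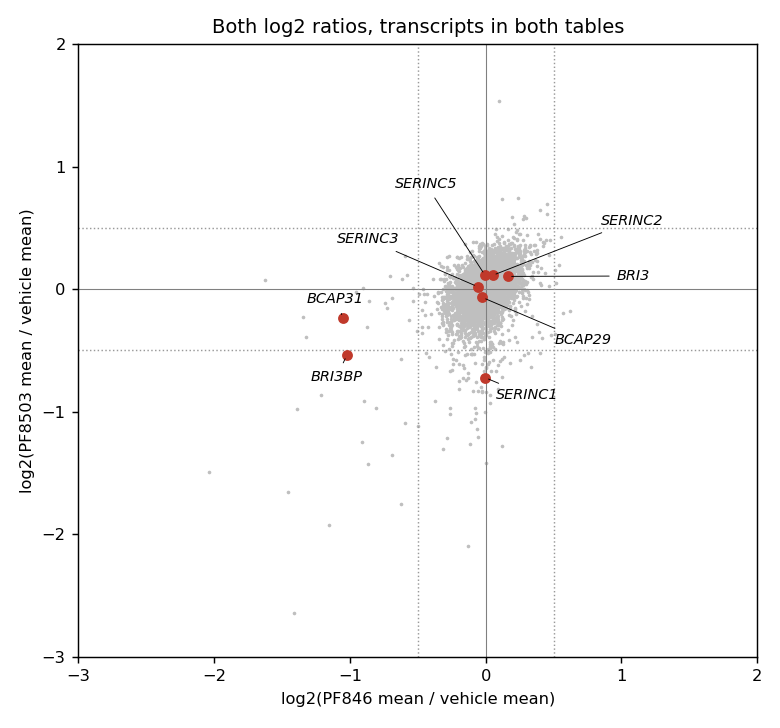
Log2 ratio of the PF846 mean to the vehicle mean (x axis) against that of the PF8503 mean to the vehicle mean (y axis) for 8775 transcripts in both tables (grey), with the 8 members in red and dotted lines at 0.5 and -0.5. SERINC1 lies below the cloud, BCAP31 to its left, BRI3BP below and to the left, and the other 5 members within it.

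Transcripts with the most similar pair of log2 ratios were sought among 7890 with a mean of at least 100 normalized counts in both tables, by Euclidean distance over the 2 ratios. The nearest to SERINC1 were POP7 (0.027 away), which encodes a subunit of RNase P and RNase MRP, PDSS2 (0.055), an enzyme of coenzyme Q synthesis, and MRPS12 (0.066), a mitochondrial ribosomal protein. POP7 had log2 ratios of -0.71 with PF8503 and 0.02 with PF846. The nearest to BCAP31 were DPCD (0.193), CDO1 (0.234), a cysteine-degrading enzyme, and EMC7 (0.288), a subunit of the ER membrane protein complex. EMC7 had log2 ratios of 0.01 with PF8503 and -0.90 with PF846. The nearest to BRI3BP were DPCD (0.275), MST1 (0.334), which encodes a secreted growth factor of the liver, and LTBP3 (0.375), which binds latent TGF-beta. The nearest transcripts of BCAP31 and BRI3BP were farther away than those of SERINC1. Of the 8 distinct transcripts named here, 7 (all but LTBP3) were counted over different regions in the 2 tables, against 1.53% of all transcripts. A search for ratios like those of these members favours such transcripts, so the count is a description. The ratios of the 7 share with those of the members a region set by the outcome. Regions that are equal in both tables, as for LTBP3, may be set by the outcome too.

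Assignment of reads between the members and other genes was examined by exact matches of 26 bases, the shortest footprint size selected. No stretch of the coding sequences of SERINC1, SERINC2, SERINC3, SERINC5, BCAP31, BCAP29 or BRI3 occurred in another coding sequence of the tables. BRI3BP had 5 such stretches of 731, at codons 15 to 25, within the leucine run shown above. They were found in 7 other genes, LTBP3 among them. Reads that align to several positions were removed by the authors, so a footprint of 26 bases with the sequence of one of these stretches could not be counted for BRI3BP in any condition, and longer footprints were not examined.

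Levels of different genes were compared per codon, with vehicle and on the scale of the PF8503 table, from the table that counted the larger region. BCAP31 had the highest level, 12.8 normalized counts per codon, at the 94.8th percentile of 8283 transcripts. SERINC1 followed with 5.22, BRI3 with 3.74, SERINC3 with 2.87, BCAP29 with 2.32 and SERINC5 with 2.13. BRI3BP had 1.54 and SERINC2 had 1.32, still above the median transcript at 0.920. BCAP31 was 5.51-fold above its paralog BCAP29, and SERINC1 was 1.82-fold above SERINC3 and 3.96-fold above SERINC2. The smallest step in this order was that from BCAP29 to SERINC5, 1.09-fold, and whether any neighbours differ beyond the spread between libraries cannot be said from pooled means. From the PF8503 table, which counted a smaller region of it, SERINC1 had 2.72, below SERINC3 at 2.87, so its place above SERINC3 depends on the table used. The levels of members counted from a later codon are understated, because the divisor was the coding length less 10 codons at each end, whatever region was counted.

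**Figure D5:**
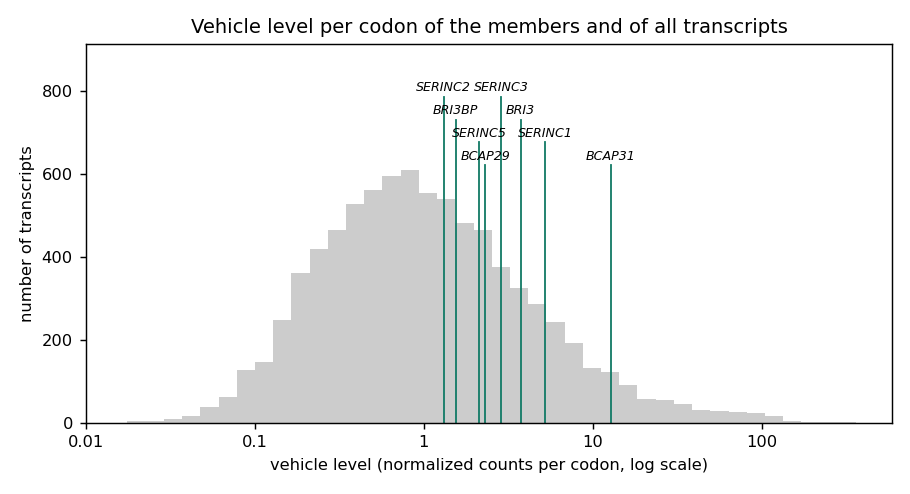
Vehicle level in normalized counts per codon (log scale) of 8283 transcripts (grey histogram, number of transcripts per bin), with green lines at the 8 members. The members range from 1.32 for SERINC2 to 12.8 for BCAP31, in the upper part of the distribution.

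Around the SERINC proteins, 19 genes of serine synthesis and of lipids made from serine were listed, and 18 were in both tables. None of the 18 passed a log2 ratio of 0.5 in either direction, where the shares over all transcripts were 1.08% lower and 0.24% higher with PF8503, and 0.396% lower and 0.0792% higher with PF846. At such shares a count of 0 says nothing about these genes. Their median log2 ratio was 0.06 with PF8503 and 0.00 with PF846, beside table medians of 0.01 and 0.00. SPTSSA, a small activating subunit of serine palmitoyltransferase, had 193 normalized counts with vehicle and 272 with PF8503, a log2 ratio of 0.49 just short of the threshold. ORMDL2, which restrains that enzyme, had 512 with vehicle and 649 with PF8503 (log2 ratio 0.34). With PF846 the 2 most distant from zero were SPTLC1 and CERS6. SPTLC1, a catalytic-core subunit of the same enzyme, had 1217 with vehicle and 1056 with PF846 (log2 ratio -0.21). CERS6, a ceramide synthase, had 597 with vehicle and 678 with PF846 (log2 ratio 0.18). PHGDH, the entry enzyme of serine synthesis, was abundant at 11.4 normalized counts per codon with vehicle and had log2 ratios of 0.09 with PF8503 and 0.01 with PF846.

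Of 9 genes linked to BCAP31, most of them for ER or mitochondrial membrane proteins, PF8503 had means for 8 and PF846 for 7. None passed the threshold with either compound, which at the same shares over all transcripts (1.08% and 0.24% with PF8503, 0.396% and 0.0792% with PF846) says nothing about these genes. Their median log2 ratio was -0.05 with PF8503 and 0.03 with PF846. SEC61A1, the channel-forming subunit of the ER translocon, had 5894 normalized counts with vehicle and 4763 with PF8503 (log2 ratio -0.31), and 5395 with vehicle and 5140 with PF846 (log2 ratio -0.07). CASP8, the initiator caspase that cleaves BCAP31, had 81.3 with vehicle and 70.7 with PF8503 (log2 ratio -0.20) and was not in the PF846 table. With PF846 the most distant from zero were SEC61G (2302 with vehicle, 2158 with compound, log2 ratio -0.09) and SEC61B (851 with vehicle, 898 with compound, log2 ratio 0.08). FIS1, a mitochondrial outer membrane protein that binds BCAP31, had log2 ratios of 0.07 with PF8503 and 0.03 with PF846.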

How the data were processed

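Per the study's methods, the authors removed adapters and ribosomal RNA reads, aligned the rest with Bowtie to canonical coding transcripts (GENCODE version 24, GRCh38), kept reads with 1 position, and summed them 3′ of the point of largest divergence (Z score of at least 2) or from 10 codons after the start, without the last 10 codons, for transcripts with over 30 counts. The deposited values used are the authors' mean normalized counts per condition (a signal per transcript, scaled by DESeq size factors). Conditions are taken from the labels, which spell the long name of PF846 in other ways than the paper; both were read as 1 compound. The tables also hold the authors' fold changes and p-values, which were not used.

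From these means the log2 ratio of compound to vehicle was computed with no pseudocount, with Python 3.11.15, numpy, pandas and biopython. Values of single libraries are not analysed here and the authors' p-values were set aside, so no test was made and "past the fold" means an absolute log2 ratio of at least 0.5. The ratio and region steps were tested on simulated data. Named genes are the members, the 3 nearest transcripts of each member past the fold, and, of each gene list, the 2 most distant from zero per compound, with PHGDH and FIS1 named after their values were seen. Members and lists were chosen with earlier results of these data known. Coding sequences came from GENCODE version 44 (94.3% of 9221 genes matched) and may differ from the authors' transcripts. Proteins were aligned globally (BLOSUM62). Alternatives were other thresholds, a minimum mean, centring on the table median and a pseudocount of 10.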

Additional observations from a re-analysis of the deposited data

How the results depend on the processing

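At an absolute log2 ratio of 1 in place of 0.5, 0 members passed with PF8503 and 2 with PF846. The share of all transcripts past 1 was not computed, so nothing is read from these counts. The counts of 2 and 2 found at 0.5 were the same with a threshold of 0.25, with a minimum mean of 100 normalized counts, with each table centred on its median and with 10 normalized counts added to both means. Shares of all transcripts under these settings were not computed either, so the unchanged counts are a description only. Centring or the added counts moved a member's log2 ratio by at most 0.044 and a difference between the compounds by at most 0.026, and turned none of them in sign. From the other table, the vehicle level of SERINC1 was 2.72 normalized counts per codon in place of 5.22, since that table counts a smaller region of it, which puts it below SERINC3 at 2.87; the levels of the other 7 members moved by less than 10%. No paired analysis was possible because the tables hold means over libraries, and leaving out a library could not be run for the same reason. Depth per library is not given in these tables; BRI3BP, with 160 to 357 normalized counts, rests on the fewest reads of the members.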
